A study of Drosophila melanogaster with 6 samples.

Results

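Transcript levels of the fibroblast growth factor (FGF) ligand and receptor genes were examined in wing imaginal discs of Drosophila melanogaster, larval epithelia from which the adult wing and the dorsal thorax arise. The genes were taken by symbol from the platform annotation and comprised the ligand genes ths, pyr and bnl and the receptor genes htl and btl. Each of these 5 genes was represented by 1 feature of the 11303 tested. A 6th gene of the selection is not analysed here. In 3 samples, the driver written as ap in the labels, known as a driver of the dorsal compartment of the disc epithelium, expressed YAP/Yki together with an RNAi construct against dTcf/Pan; these are called dTcf RNAi discs below. In the 3 samples they were set against, the same driver expressed YAP/Yki alone; these are called Yki discs. Both groups therefore carried the Yki transgene, and the labels name neither discs without it nor a control hairpin. All discs were dissected 7 days after induction of the transgenes. Values are the deposited log2 levels, with 3 arrays per group throughout, which limits the precision.

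FGFs are secreted proteins that bind receptor tyrosine kinases and, through Ras and MAP kinase, act on the growth, migration and fate of the receiving cells. In Drosophila, Ths and Pyr, relatives of vertebrate FGF8, are ligands of Htl, which is made in mesoderm. Bnl is the ligand of Btl, which is made in trachea. In the wing disc, ligands are made by epithelial cells, whereas htl is expressed by the adult muscle precursors (myoblasts) that lie beneath the notum, from which the dorsal thorax arises, and btl by the tracheal cells that contact the disc. The comparison asks how both sides of this exchange differed when dTcf, the DNA-binding effector of Wnt signalling, was targeted in Yki discs.

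The 6 arrays correlated at 0.994 to 0.996 within groups and at 0.980 to 0.986 between them, and array medians were 8.410 to 8.515. The gene targeted by the hairpin is not analysed here, and its depletion is therefore unchecked. Of 10 listed marker genes of the wing disc epithelium, 8 were measured. Their mean level was 10.42 to 10.55 in dTcf RNAi arrays and 10.67 to 10.72 in Yki arrays. Of the 8, 4 were lower and 3 higher in dTcf RNAi discs, with a median change of −0.07. By the same rule, an adjusted p under 0.05 in limma, 13.4% of all tested features were lower and 12.1% higher. The genes named next mark regions of the disc, so the values of this list do not measure how much epithelium was sampled. The pouch genes nub (−1.12 ± 0.09, SE of the limma fit) and rn (−0.70 ± 0.06) and the notum gene pnr (−1.68 ± 0.16) were among the lower ones. The 3 higher ones were tsh (1.06 ± 0.07), a gene of the hinge and notum, and the dorsal compartment genes Dr (0.49 ± 0.06) and ap (0.37 ± 0.04), of which Dr and ap were chosen for naming after their values were seen.

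All 5 genes of FGF ligands and receptors had lower levels in dTcf RNAi discs, by 1.29-fold for btl up to 3.62-fold for ths. All 5 passed an adjusted p under 0.05 in limma, where 13.4% of all tested features were lower and 12.1% higher by this rule. The counts behind these shares, 1518 lower and 1369 higher, depend on the setting. They were 1086 and 2086 with each array centred on its median, 979 and 765 without dTcf RNAi replicate 1, and 1001 and 809 without Yki replicate 3, and 789 were higher without Yki replicate 2. The falls of ths, pyr and htl also reached 2-fold, as did those of 1.27% of features. The groups did not overlap for any of the 5 genes, whereas 21.6% of features had non-overlapping groups with dTcf RNAi lower and 23.4% with dTcf RNAi higher. In these counts bnl has a limit, as its fall is not independent of a minimum of the deposited values described below. The sample titles name wing disc tissue and no cell type. Fewer cells of a type and less RNA per cell therefore cannot be told apart for any of these changes.

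The ligand gene ths changed most. It stood at 8.39, 8.79 and 8.47 in the 3 dTcf RNAi arrays, against 10.48, 10.36 and 10.37 in the Yki arrays. The lowest Yki array was thus 1.57 above the highest dTcf RNAi array, although the dTcf RNAi arrays spread over 0.40 and the Yki arrays over 0.12. The mean was 8.55 ± 0.21 in dTcf RNAi discs and 10.41 ± 0.07 in Yki discs (SD, n = 3 each), a change of −1.85 ± 0.11 (95% interval −2.11 to −1.60, limma adjusted p = 0.000261). On a linear scale, 27.7% of the Yki level remained. Replicate 2 was the highest dTcf RNAi array, and without it the change was −1.97.

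The second ligand of Htl, pyr, fell 2.31-fold. It stood at 8.32, 8.33 and 8.37 in dTcf RNAi arrays and at 9.62, 9.46 and 9.56 in Yki arrays. The spread within a group was 0.04 with dTcf RNAi and 0.15 without, against a gap of 1.09 between the groups. The change was −1.21 ± 0.05 (95% interval −1.33 to −1.08, limma adjusted p = 0.000213), which left 43.3% of the Yki level. In the RefSeq gene table of Release 6, pyr and ths lie next to each other on chromosome arm 2R, with no other gene of the table starting between them. The next gene after ths, CG13193, stood at 5.91 in dTcf RNAi discs and 5.99 in Yki discs (change −0.08, limma adjusted p = 0.364). Its arrays lay between 5.88 and 6.06, near the minimum of 5.91 described below for bnl, where a fall could hardly show. The 2 neighbours before pyr, Ir48b and lncRNA:CR45377, were not analysed here.

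The Btl ligand gene bnl had lower levels in dTcf RNAi discs as well. It stood at 6.10, 5.85 and 6.02 in dTcf RNAi arrays, against 6.87, 7.23 and 6.80 in Yki arrays. Yki replicate 2 was the highest, and the gap between the groups was 0.71. The change was −0.98 ± 0.12 (95% interval −1.27 to −0.69, limma adjusted p = 0.00265), or 1.97-fold, and its interval spans the 2-fold mark. Without Yki replicate 2 it was −0.85. Each deposited feature reached at least 5.91 in 3 or more arrays. For bnl, 2 of the 3 dTcf RNAi arrays and all 3 Yki arrays reached this value. Its place in the tables therefore rests on the Yki arrays, and its lower level in dTcf RNAi discs is not independent of such a minimum. The other 4 genes were above it in all 6 arrays.

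**Figure D1:**
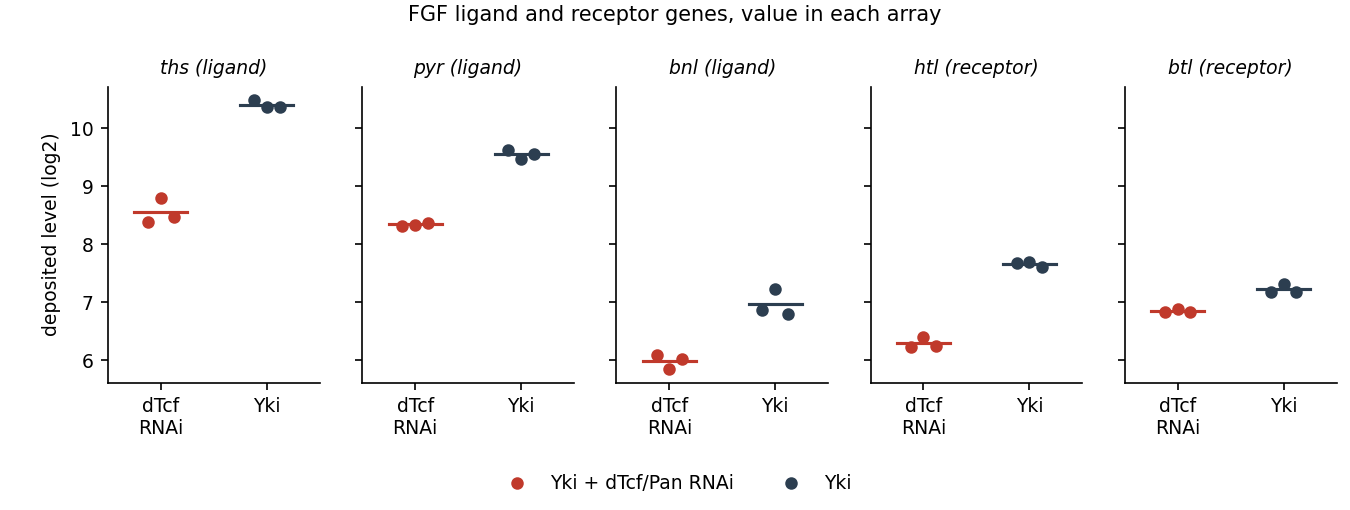
Deposited log2 level (y axis) of each FGF ligand and receptor gene in each array, with 3 Yki + dTcf/Pan RNAi arrays to the left of 3 Yki arrays in each panel; points are arrays and lines are group means. All dTcf RNAi arrays lie below all Yki arrays in each panel, with the widest gap for ths (1.57) and the narrowest for btl (0.28); levels of different genes are not comparable.

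Of the receptor genes, htl, which marks the myoblasts of the disc, fell 2.58-fold. It stood at 6.23, 6.40 and 6.25 in dTcf RNAi arrays and at 7.67, 7.69 and 7.61 in Yki arrays. The arrays of a group lay within 0.17 of each other with dTcf RNAi and within 0.07 without. The change was −1.37 ± 0.06 (95% interval −1.51 to −1.23, limma adjusted p = 0.000213), and by p-value htl ranked 4 among the 11303 features. Its lowest dTcf RNAi array was 0.32 above the 5.91 noted for bnl, a level at which differences in transcript amount can be compressed on arrays.

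The tracheal receptor gene btl changed least. It stood at 6.84, 6.89 and 6.83 in dTcf RNAi arrays and at 7.17, 7.32 and 7.17 in Yki arrays. The groups were separated by 0.28, with a spread of 0.06 among dTcf RNAi arrays and 0.15 among Yki arrays. The change was −0.37 ± 0.06 (95% interval −0.50 to −0.23, limma adjusted p = 0.00549), or 1.29-fold, with 77.5% of the Yki level remaining.

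**Figure D2:**
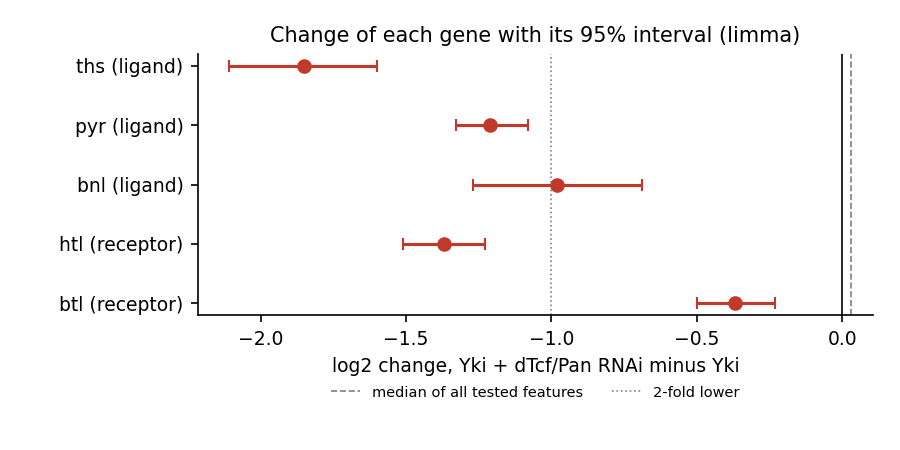
Log2 change, Yki + dTcf/Pan RNAi minus Yki, of each gene (points) with its 95% interval from limma (bars); the dashed line is the median of all tested features (0.03) and the dotted line marks 2-fold lower. The intervals of ths, pyr and htl lie wholly beyond 2-fold, that of bnl spans it and that of btl ends at −0.50.

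Ordered by size, the falls ran from ths through htl, pyr and bnl to btl. The intervals of htl and pyr overlap, as do those of pyr and bnl, whereas those of ths and htl and those of bnl and btl do not. Among all 11303 features, 22 had a larger fall than ths, 71 than htl, 99 than pyr, 161 than bnl and 778 than btl. The median change was −1.21 over the 5 genes, bnl with its limit included, and 0.03 over all tested features.

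**Figure D3:**
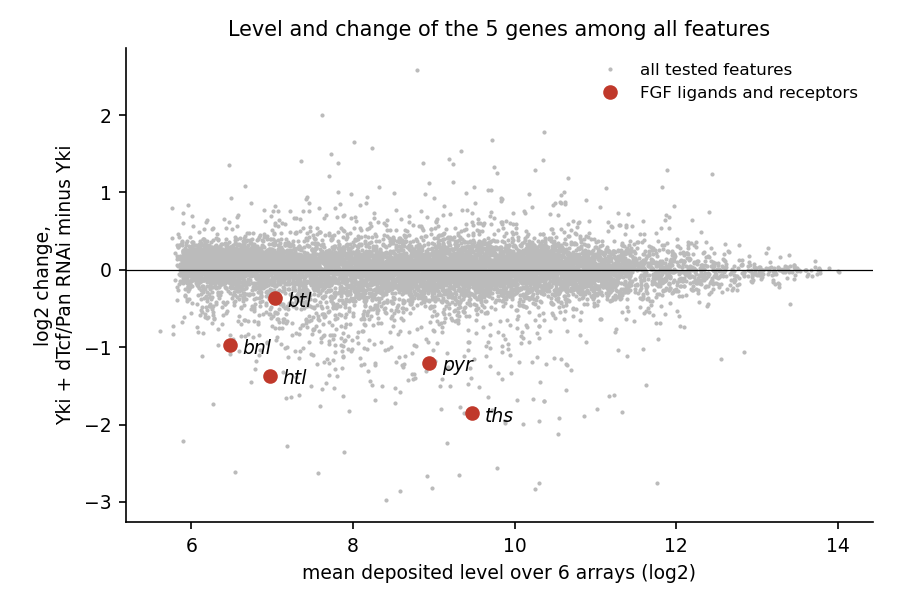
Mean deposited level over the 6 arrays (x axis, log2) against the log2 change, Yki + dTcf/Pan RNAi minus Yki (y axis), for all 11303 tested features (grey) and the 5 FGF genes (red). The genes ths and pyr lie in the middle of the level range, and htl and btl lie lower. The gene bnl is among the lowest 25% of features by mean level. Of the 5 genes, btl is closest to the bulk of the features, with 778 larger falls.

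Whether the genes changed unequally was asked within arrays, as the log2 difference between the genes of a pair. With 3 arrays against 3, the smallest p of the two-sided exact permutation test is 0.1, so no pair could pass 0.05. The ligand gene ths changed by 0.49 more than its receptor gene htl (difference of change −0.49, groups not overlapping, exact p = 0.1, adjusted p = 0.125 over 5 pairs). It also changed more than pyr, with a difference of −0.65 and groups that did not overlap (exact p = 0.1). For pyr and htl the difference was 0.16 and the groups overlapped (exact p = 0.3, adjusted p = 0.3), and it lay between 0.10 and 0.22 when single arrays were left out. The lowest dTcf RNAi array of htl lay 0.32 above the 5.91 noted for bnl, against 2.48 for ths and 2.41 for pyr. The part of compression at low levels in the differences with htl was not tested. For bnl and btl the difference was −0.61 (exact p = 0.1), a value that is not independent of the minimum described for bnl. The receptor gene htl changed more than btl by 1.0 (difference −1.0, exact p = 0.1). The difference between htl and btl had SDs of 0.06 in dTcf RNAi discs and 0.07 in Yki discs.

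**Figure D4:**
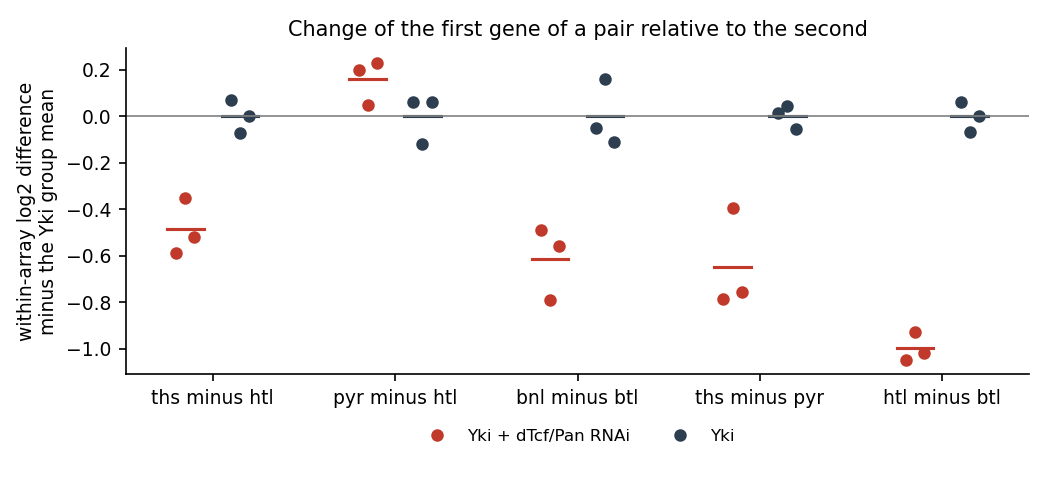
Within-array log2 difference between the genes of each pair (first minus second), less its mean in Yki arrays (y axis), for 3 Yki + dTcf/Pan RNAi arrays to the left of 3 Yki arrays; points are arrays and lines are means. The dTcf RNAi arrays lie below the Yki arrays for all pairs but pyr minus htl, where the groups overlap.

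Genes that relay the signal from FGF receptors showed no change of comparable size. Over all tested features, 12.1% were higher and 13.4% lower. Of 15 listed components between receptor and MAP kinase, 10 were measured, 2 were higher, 0 lower and 8 did not pass limma's adjusted p, while 4 had an unadjusted p under 0.05. Their changes lay between −0.06 and 0.18 (median 0.11). The 2 were cnk (0.18 ± 0.04, limma adjusted p = 0.0258), a scaffold of Raf signalling, and PTP-ER (0.18 ± 0.05, limma adjusted p = 0.0309), a phosphatase that acts on MAP kinase. Of this list 1 gene passed without dTcf RNAi replicate 3, and 0 without dTcf RNAi replicate 1 or 2 or without Yki replicate 1, 2 or 3. The same relay serves other receptor tyrosine kinases such as Egfr.

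Among 8 measured genes of the transcriptional response and feedback, 1 was higher and 0 lower, against 12.1% and 13.4% of all tested features. Of the 8, 3 had an unadjusted p under 0.05. The one that rose was esg (0.68 ± 0.05, limma adjusted p = 0.000557), a zinc-finger gene of tracheal and imaginal cells. It stood at 12.29, 12.23 and 12.22 in dTcf RNAi arrays and at 11.63, 11.51 and 11.56 in Yki arrays. Without Yki replicate 1, 2 genes of this list passed. The genes of this list that follow did not pass and were chosen for naming after their values were seen. The level of sty, the fly Sprouty, was 10.29 ± 0.09 in dTcf RNAi discs and 10.22 ± 0.03 in Yki discs (limma adjusted p = 0.369). Mkp3, a MAP kinase phosphatase, changed by −0.14 ± 0.05 (limma adjusted p = 0.0916), and aos, an inhibitor of Egfr, by 0.27 ± 0.13 (limma adjusted p = 0.155).

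Heparan sulfate proteoglycans act as coreceptors of FGFs, and 12 of 16 listed genes of their core proteins and enzymes were measured. Of these, 4 were lower and 1 higher, against 13.4% and 12.1% of all tested features. The other 7 did not pass limma's adjusted p, and the median change of the list was −0.04. The sulfotransferase gene Hs6st changed by −0.31 ± 0.06 (limma adjusted p = 0.0115), the glypican gene dlp by −0.22 ± 0.04 (limma adjusted p = 0.0136), and Hs2st and the perlecan gene trol by −0.18 each. The 1 higher gene, named after its value was seen, was the sulfotransferase gene sfl (0.30 ± 0.08, limma adjusted p = 0.0356). With single arrays left out, 3 genes of the list passed without Yki replicate 1, 2 or 3 or dTcf RNAi replicate 3, and 2 without dTcf RNAi replicate 1 or 2. With each array centred on its median, Hs2st had an adjusted p of 0.0868 and trol of 0.0891 in limma.

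Of 16 listed genes of other receptor tyrosine kinases, 14 were measured, and these did not shift together. Of these, 2 were higher, 2 lower and 10 did not pass limma's adjusted p, against 25.5% of all features called in either direction, and their median change was 0.03. None of the 14 reached 2-fold, and their range was −0.66 to 0.69. Receptor genes outside the list were not counted. Tie rose (0.69 ± 0.09, limma adjusted p = 0.00261), as did Egfr (0.37 ± 0.04, limma adjusted p = 0.00218). Egfr stood at 11.20, 11.26 and 11.19 in dTcf RNAi arrays and at 10.85, 10.87 and 10.83 in Yki arrays, without overlap, the opposite direction to htl and btl. The Wnt-binding receptor gene drl fell (−0.66 ± 0.06, limma adjusted p = 0.00107), and otk changed by −0.19 ± 0.05 (limma adjusted p = 0.0436), a call that ended with any 1 array left out.

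Markers of the cells that carry htl changed in both directions. Of 15 listed myoblast genes, htl not among them, 12 were measured, of which 5 were lower, 2 higher and 5 did not pass. The median change of 0.03 lay between these. By the same rule, 13.4% of all tested features were lower and 12.1% higher. The mean level of the list was 8.23 to 8.32 in dTcf RNAi arrays and 8.48 to 8.51 in Yki arrays, and the lowest value of any gene was 6.55 in dTcf RNAi arrays and 6.50 in Yki arrays. The transcription factor gene zfh1, which is expressed in the muscle precursors, fell 2.65-fold. It stood at 7.92, 8.12 and 8.07 in dTcf RNAi arrays, against 9.34, 9.49 and 9.49 in Yki arrays (change −1.41 ± 0.07, limma adjusted p = 0.000222). The mesodermal determinant twi stood at 9.24, 9.31 and 9.51 in dTcf RNAi arrays, against 10.28, 10.42 and 10.30 in Yki arrays (change −0.98 ± 0.08, limma adjusted p = 0.00064). The change of htl (−1.37) lay between those of these 2 genes, while the list ranged from −1.41 to 1.53. The lower genes rst (−0.77) and Him (−0.56), named after their values were seen, changed less than htl. By contrast, sns, an adhesion gene of myoblast fusion, rose 2.89-fold (1.53 ± 0.04, limma adjusted p = 6.74e-05), while its relative hbs fell 2.04-fold (−1.03 ± 0.08, limma adjusted p = 0.000604). The other higher gene, rols, also named after its value was seen, changed by 0.17 ± 0.05 (limma adjusted p = 0.0367). The part of the number of myoblasts in the fall of htl was not tested.

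Of 13 listed tracheal genes, btl not among them, 11 were measured, of which 5 were lower, 2 higher and 4 did not pass, with a median change of −0.26. For comparison, 13.4% of all tested features were lower and 12.1% higher. The mean level of the list was 10.55 to 10.68 in dTcf RNAi arrays and 10.91 to 10.96 in Yki arrays, and no gene of it was below 7.20. The nuclear receptor-family genes kni (−1.20 ± 0.07, limma adjusted p = 0.000254) and knrl (−0.98 ± 0.06), which are also expressed in the disc epithelium, fell most, and Gasp, which encodes a chitin-binding protein, fell by 0.64 on the log2 scale. The 2 higher genes were esg (0.68 ± 0.05, limma adjusted p = 0.000557) and uif (0.24 ± 0.06, limma adjusted p = 0.024). Of these, uif was named after its value was seen, and the list shares esg with that of the response genes. The part of the amount of trachea in the change of btl was not tested.

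The notum epithelium, beneath which the myoblasts lie, was read from 10 measured genes of 13 listed. All 10 changed, 8 lower and 2 higher, against 13.4% and 12.1% of all tested features, with a median of −0.90. The mean level of the list was 8.84 to 8.95 in dTcf RNAi arrays and 9.59 to 9.70 in Yki arrays. The Pax gene eyg stood at 7.62, 8.20 and 8.31 in dTcf RNAi arrays, against 10.37, 10.25 and 10.21 in Yki arrays (change −2.24 ± 0.17, limma adjusted p = 0.000561). The GATA-factor gene pnr fell 3.21-fold (−1.68 ± 0.16, limma adjusted p = 0.00106) and the LIM-homeobox gene tup 2.98-fold (−1.57 ± 0.11, limma adjusted p = 0.000384). The Iroquois gene caup changed by −0.79 ± 0.05. In the other direction tsh, which is also a gene of the hinge, rose 2.09-fold (1.06 ± 0.07, limma adjusted p = 0.000378). The other higher gene, ush, named after its value was seen, rose 1.51-fold (0.59 ± 0.07, limma adjusted p = 0.00233). The part of the amount of notum tissue in the falls of ths, pyr and htl was not tested.

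Markers of other cell types were read in the same way, beside 13.4% of all tested features lower and 12.1% higher. Of 9 measured haemocyte genes 4 were higher and 3 lower. Among the higher were Hml (0.94 ± 0.13, limma adjusted p = 0.00425), Sr-CI (0.98 ± 0.19, limma adjusted p = 0.0117) and Pxn (0.50 ± 0.09, limma adjusted p = 0.00966). Among the lower was Ppn (−1.81 ± 0.08, limma adjusted p = 0.000213). Of 4 fat body genes 0 passed limma's adjusted p and 2 had an unadjusted p under 0.05; 1 passed without Yki replicate 2 or 3. The lowest p was that of the fatty acid synthase gene FASN1 (0.29 ± 0.09, limma adjusted p = 0.0556). The other fat body genes had negative changes, and the median of the list was −0.12. Among them Lsp2, named after its value was seen, changed by −1.05 ± 0.39 (limma adjusted p = 0.0926). Its Yki arrays stood at 7.74, 7.08 and 8.81. Of 4 muscle genes 1 was lower, Mlc2 (−0.41 ± 0.06, limma adjusted p = 0.00513). Of 7 neuron and glia genes 1 was higher, elav (0.25 ± 0.05, limma adjusted p = 0.018), and 0 passed without Yki replicate 2 or dTcf RNAi replicate 1.

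**Figure D5:**
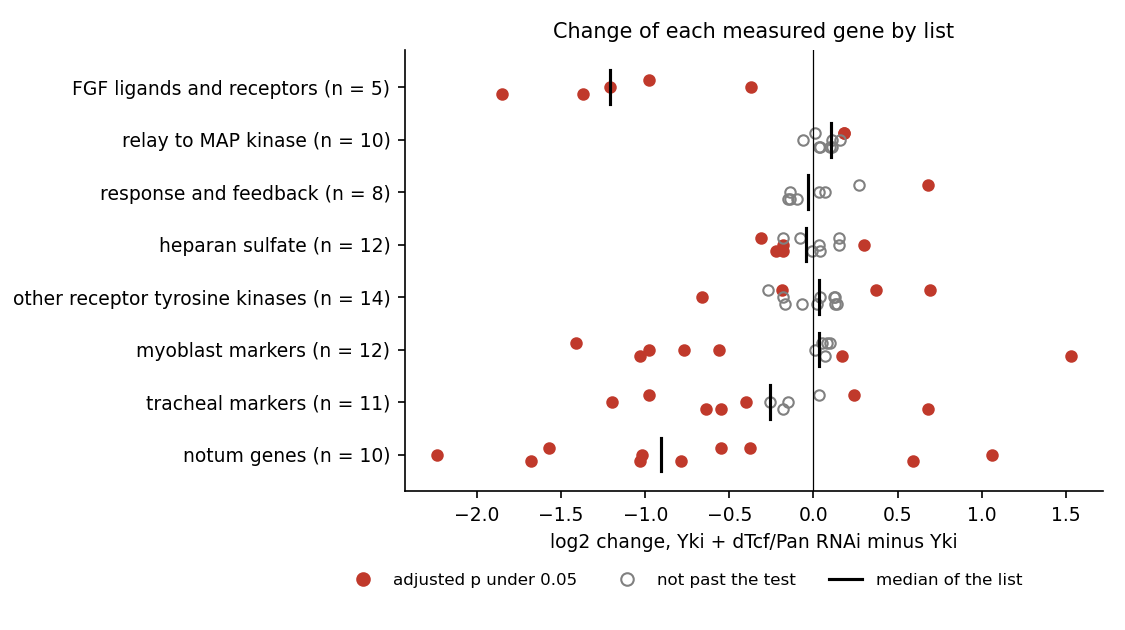
Log2 change, Yki + dTcf/Pan RNAi minus Yki (x axis), of each measured gene of the FGF ligands and receptors and of 7 lists (rows); filled points passed an adjusted p under 0.05 in limma, open points did not, and black bars are medians. The FGF genes (median −1.21) and the notum genes (median −0.90) lie mostly to the left of 0, whereas the relay, response, heparan sulfate and other receptor lists have medians between −0.04 and 0.11.

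Genes with the most similar profile were sought for each FGF gene among the 10116 named genes, as the smallest root mean square (RMS) difference over the 6 arrays after each profile was centred on its own mean. The measure takes up the size of the group difference and the deviations of single arrays together. For ths these were CG31955 (RMS difference 0.121), smal (0.125) and drm (0.136), the last a zinc-finger gene of the odd-skipped family that changed by −1.89 ± 0.10. For pyr they were kni (0.046), the non-coding RNA pncr004:X (0.0643) and CG11905 (0.073). For bnl they were CG13082 (0.0895), the homeobox gene ct (0.113) and CG4576 (0.127), and ct, which is expressed in myoblasts and at the wing margin, changed by −0.84 ± 0.08. For htl they were the HMG-box gene Sox102F (0.0617, change −1.42 ± 0.09), CG5391 (0.0647) and yellow-e2 (0.0738). For btl, whose change was small, they were subdued (0.0246), the complex I gene ND-39 (0.0262) and Pex19 (0.0338). Among the FGF genes themselves, htl and pyr were closest to each other, with an RMS difference of 0.115, and ths and btl were farthest apart at 0.755. In order of likeness to htl, pyr stood at place 13 of all named genes and ths at place 96.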

How the data were processed

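The authors deposited log2 expression levels of 11325 features from arrays of 1 channel; per the labels' protocols, total RNA was extracted in TRIzol and biotin-labelled. A series-wide matrix was used; the values of the series matrix table differ from it by at most 5.0e-09. How the arrays were background-corrected, normalized and summarised was not stated in the sources used here. Features with 1 symbol in the platform annotation (10155, less 17 with several FlyBase numbers) were named, with symbols updated through a RefSeq gene table (Release 6 plus ISO1 MT). The 313 features with several symbols and 857 with none were tested but not named. For 22 genes with several features the one with the highest mean was kept, leaving 11303 features and 10116 named genes.

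Groups follow the sample titles. Changes are dTcf RNAi minus Yki, fitted with limma 3.58.1 in R 4.3.3 (lmFit, eBayes, no covariate), the test and thresholds of the series' design text, with Benjamini-Hochberg adjustment over all features. "Rose" and "fell" mean an adjusted p under 0.05. Pairs of genes were compared by exact permutation over arrays. The code was tested on simulated data. Since no label tells whether samples came from separate crosses or animals, p-values cover only the spread among these samples, and that spread may be technical.

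The genes and the lists were chosen with earlier results of these data known. The rule for naming takes the FGF genes, the called genes of each list with the lowest p (at most 4, or the 1 nearest to the threshold where 0 passed), and the 3 nearest profiles per FGF gene. Named outside it are the neighbours of pyr and ths and genes said to be chosen after their values were seen. Current symbols stand for 3 listed genes. The alternatives were a replicate block, median centring, quantile normalization, omission of dim features (the lowest 25% by mean), a trended robust fit, the other table, averaged features, and omission of each array.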

Additional observations from a re-analysis of the deposited data

How the results depend on the processing

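All 5 FGF genes kept their direction and an adjusted p under 0.05 in limma under each alternative that gave a value, 13 for each of ths, pyr, htl and btl and 12 for bnl, which was not tested when dim features were left out. With single arrays left out, the change was −1.97 to −1.77 for ths, −1.25 to −1.17 for pyr, −1.06 to −0.85 for bnl, −1.42 to −1.34 for htl and −0.39 to −0.32 for btl. The highest adjusted p of any alternative was 0.0261, for btl without dTcf RNAi replicate 1. bnl also passed 2-fold, making 4 of the 5 genes, with quantile normalization (−1.02), without Yki replicate 1 (−1.03), without Yki replicate 3 (−1.06) and without dTcf RNAi replicate 1 (−1.03). Its lower level is not independent of the minimum of the deposited values under any of these settings. The pair differences ranged with single arrays left out from −0.56 to −0.44 (ths and htl), 0.10 to 0.22 (pyr and htl), −0.67 to −0.52 (bnl and btl), −0.77 to −0.58 (ths and pyr) and −1.03 to −0.97 (htl and btl). Over all features, 1518 were lower and 1369 higher; with each array centred on its median, 1086 were lower and 2086 higher. With 1 array left out these counts were 979 to 1282 and 765 to 1153, and those past 2-fold 122 to 167 lower and 25 to 42 higher. After median centring, 4 relay genes and 1 fat body gene passed. With 1 array left out, 0 to 1 relay, 1 to 2 response, 2 to 3 heparan sulfate, 0 to 1 fat body and 0 to 1 neuron and glia genes passed. Of 598 values for the other named genes, 553 stayed on their side of the threshold, 40 lost it, 5 gained it and 0 changed sign.

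The sample titles link same-numbered arrays by number only. Deviations of these arrays from the group means correlated at −0.127, −0.098 and 0.162, and those of other pairs at −0.281 to 0.345. With 3 arrays per group, such values cannot decide whether same-numbered arrays shared a batch. With the replicate number as a block, ths was at −1.85 (adjusted p = 0.0034), pyr at −1.21 (0.00219), htl at −1.37 (0.00186), bnl at −0.98 (0.015) and btl at −0.37 (0.0155).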
